A study of Rattus norvegicus with 16 samples.

Results

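Slit2, Unc5b and S100b, signalling genes best known from the nervous system, were followed in the rat abdominal wall beneath implants. They are 3 of the 32552 genes counted and 3 of the 2007 for which a symbol was at hand. They were selected on expression results of these same libraries, so their own levels and fold changes are given as a description and carry no p value.

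By the labels the tissue came from female Sprague Dawley rats aged 12 weeks, while the study's methods name both sexes for its rat work as a whole. It covered 4 groups of 4 libraries, namely adhesive implants on day 14, non-adhesive implants on day 14, adhesive implants on day 3 and non-adhesive implants on day 3. The non-adhesive implant was the adhesive one after overnight swelling in PBS, which removed its bonding, and sutures at its corners held it in place. In these libraries an effect of the implant therefore cannot be told apart from an effect of the sutures. By histology, the paper also looked at adhesive implants with corner sutures. It reported fibrosis at the suture point and no observable capsule where the adhesive interface was intact. No source used here states whether each library came from its own rat, so every error and p value measures the spread between these libraries, and any batch that goes with the day of collection is confounded with the day.

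Slit proteins are secreted ligands that bind Robo receptors and repel growing axons. Netrins are secreted ligands as well, and UNC5 proteins are the receptors through which netrins repel axons. Both systems also act outside nerves, on blood vessels and migrating leukocytes. S100b is a small calcium-binding protein of astrocytes and Schwann cells, the glia that wrap peripheral axons, and it is also made by adipocytes and cartilage cells. Outside cells it can bind the receptor Ager, also called RAGE.

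In the coordinates of the count files, whose genome build the sources give inconsistently, Slit2 (ENSRNOG00000003840) lay on the minus strand of chromosome 14 from 66831848 to 67170361, with exons of 7665 bases in all. One other gene model lies inside that span on the opposite strand, shares no exon with Slit2 and had 0 counts in all 16 libraries. Unc5b (ENSRNOG00000000567) lay on the minus strand of chromosome 20 from 30339673 to 30406295, with 5617 exon bases. S100b (ENSRNOG00000001295) lay on the same chromosome and strand from 13130636 to 13142856, with 1484 exon bases. Promoter sequences from RefSeq on the GRCr8 build matched 2 of the 3 genes, and they are shown because the 2 starts differ widely in base composition. Each runs 5′ to 3′ on the gene's strand, from 250 bases before the start to 50 after it. Capitals mark GGGCGG, the GC box that Sp1 binds, and CANNTG, the E-box, on either strand, and no 2 matches overlapped.
Unc5b, chr20:29307221-29307520, minus strand: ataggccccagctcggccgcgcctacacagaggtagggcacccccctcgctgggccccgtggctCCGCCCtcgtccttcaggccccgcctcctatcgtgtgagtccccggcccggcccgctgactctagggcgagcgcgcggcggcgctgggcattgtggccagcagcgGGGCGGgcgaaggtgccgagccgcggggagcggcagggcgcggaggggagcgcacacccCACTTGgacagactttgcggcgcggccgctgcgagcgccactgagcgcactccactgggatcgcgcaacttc
S100b, chr20:12381032-12381331, minus strand: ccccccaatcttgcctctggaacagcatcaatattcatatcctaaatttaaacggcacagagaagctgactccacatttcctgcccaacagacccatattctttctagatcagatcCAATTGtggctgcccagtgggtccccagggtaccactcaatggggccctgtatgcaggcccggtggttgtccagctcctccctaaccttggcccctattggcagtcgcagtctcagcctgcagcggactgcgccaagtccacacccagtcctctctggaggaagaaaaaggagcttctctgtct

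The Unc5b promoter was 74.3% G and C with 37 CG dinucleotides, a number that 4.78% of 33469 rat promoters of that length reached. The S100b promoter was 54.0% G and C with 5 CG dinucleotides, which 62.0% of promoters reached. GGGCGG was found at 2 places for Unc5b and at 0 for S100b, and 33.1% of all promoters hold it. Each promoter held 1 CANNTG, as 72.1% of promoters do. Neither TATAAA, the TATA box, nor ACAAAG, a core that SOX factors bind, was found in either window, and these are held by 14.2 and 18.8% of promoters.

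Library totals ran from 13852126 to 16801635 counts on day 14 and from 18616084 to 24858976 on day 3, and levels are given as CPM, a gene's counts scaled to 1 common library total. Per kilobase of exon, the 3 genes kept the same order of mean level in all 4 groups. S100b was highest, at 2.47 ± 2.06 CPM per kilobase with adhesive implants and 15.0 ± 9.63 with non-adhesive implants on day 14 (SD, n = 4 each). Unc5b came next, at 1.33 ± 0.100 and 2.91 ± 0.854 CPM per kilobase in those groups. Slit2 was lowest, at 0.272 ± 0.110 CPM per kilobase with adhesive and 1.499 ± 0.863 with non-adhesive implants. S100b lay above Unc5b within a library in 3 of 4 adhesive libraries of day 14 and in 4 of 4 libraries of each other group.

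Slit2, the ligand, was lowest with adhesive implants on day 14 and highest with non-adhesive implants on day 14. Its levels were 1.39, 2.50, 3.07 and 1.38 CPM in the adhesive libraries of day 14, against 12.95, 18.5, 11.9 and 2.57 CPM in the non-adhesive ones. Of the non-adhesive libraries 3 lay far above all adhesive ones, and replicate 4 fell within the adhesive range. The means were 2.08 ± 0.843 CPM with adhesive and 11.5 ± 6.62 CPM with non-adhesive implants (SD, n = 4 each), 5.51-fold higher with non-adhesive implants. The fitted log2 fold change, adhesive over non-adhesive, was −2.48 ± 0.56 (SE) over all 8 libraries and −2.82 ± 0.31 without non-adhesive replicate 4. Leaving out each library in turn gave −2.82 to −2.16. On day 3 the levels were 2.14, 5.14, 4.26 and 5.90 CPM with adhesive implants, against 7.88, 2.32, 4.70 and 5.68 CPM with non-adhesive implants. Those groups overlapped over most of their range, and the log2 fold change was −0.25 ± 0.41.

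Between days, Slit2 differed in sign at the 2 implants. Day 14 over day 3, the log2 fold change was −0.97 ± 0.52 with adhesive implants and 1.25 ± 0.49 with non-adhesive implants. The day 14 and day 3 libraries overlapped at both implants. The 4 means ran 2.08 CPM in adhesive day 14, 4.36 in adhesive day 3, 5.15 in non-adhesive day 3 and 11.5 in non-adhesive day 14, and each pair of neighbours in that order overlapped.

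Unc5b, the receptor, varied least within groups. On day 14 it stood at 7.89, 6.99, 8.02 and 6.97 CPM with adhesive implants, against 21.0, 14.1, 19.5 and 10.7 CPM with non-adhesive implants. All 4 adhesive libraries lay below all 4 non-adhesive ones, and non-adhesive replicate 4 was again the closest to the adhesive range. The means were 7.47 ± 0.564 CPM with adhesive and 16.4 ± 4.798 CPM with non-adhesive implants, and the log2 fold change was −1.16 ± 0.23. On day 3 the range was 4.22 to 6.21 CPM with adhesive and 3.53 to 8.21 CPM with non-adhesive implants. The adhesive range of day 3 lay inside the non-adhesive one, with a log2 fold change of −0.06 ± 0.29.

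Unlike the values of Slit2 and S100b, those of Unc5b on day 14 lay above those on day 3 at both implants, in every library. The log2 fold change, day 14 over day 3, was 0.52 ± 0.27 with adhesive and 1.61 ± 0.27 with non-adhesive implants. The means ran 5.51 CPM in adhesive day 3, 5.68 in non-adhesive day 3, 7.47 in adhesive day 14 and 16.4 in non-adhesive day 14. The 2 groups of day 3 did not differ beyond their spread, and non-adhesive day 3 overlapped adhesive day 14.

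S100b, the calcium-binding protein, varied most. Its levels on day 14 were 0.640, 7.87, 2.56 and 3.60 CPM with adhesive implants, against 10.7, 14.0, 42.5 and 21.6 CPM with non-adhesive implants. The adhesive libraries all lay below the non-adhesive ones, and non-adhesive replicate 4, the library nearest the adhesive range for Slit2 and Unc5b, was the second highest for S100b. The lowest value rests on 6 counts, with an exact Poisson 95% interval of 0.235 to 1.39 CPM that covers counting error only. The means were 3.67 ± 3.06 CPM with adhesive and 22.2 ± 14.3 CPM with non-adhesive implants, 6.05-fold higher with non-adhesive implants. The log2 fold change was −2.58 ± 0.68.

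On day 3 S100b stood at 3.29, 4.64, 4.76 and 14.1 CPM with adhesive implants, against 19.3, 4.395, 7.29 and 2.37 CPM with non-adhesive implants. A single library was high in each group, replicate 4 of the adhesive and replicate 1 of the non-adhesive implants, and the groups overlapped. The log2 fold change of −0.32 ± 0.67 turned to 0.51 without that non-adhesive library, and those of Slit2 and Unc5b turned to 0.03 and 0.17. Day 14 over day 3, S100b gave −0.76 ± 0.72 with adhesive and 1.51 ± 0.70 with non-adhesive implants, with overlap at both. Its means ran 3.67 CPM in adhesive day 14, 6.70 in adhesive day 3, 8.33 in non-adhesive day 3 and 22.2 in non-adhesive day 14, and each pair of neighbours overlapped.

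**Figure D1:**
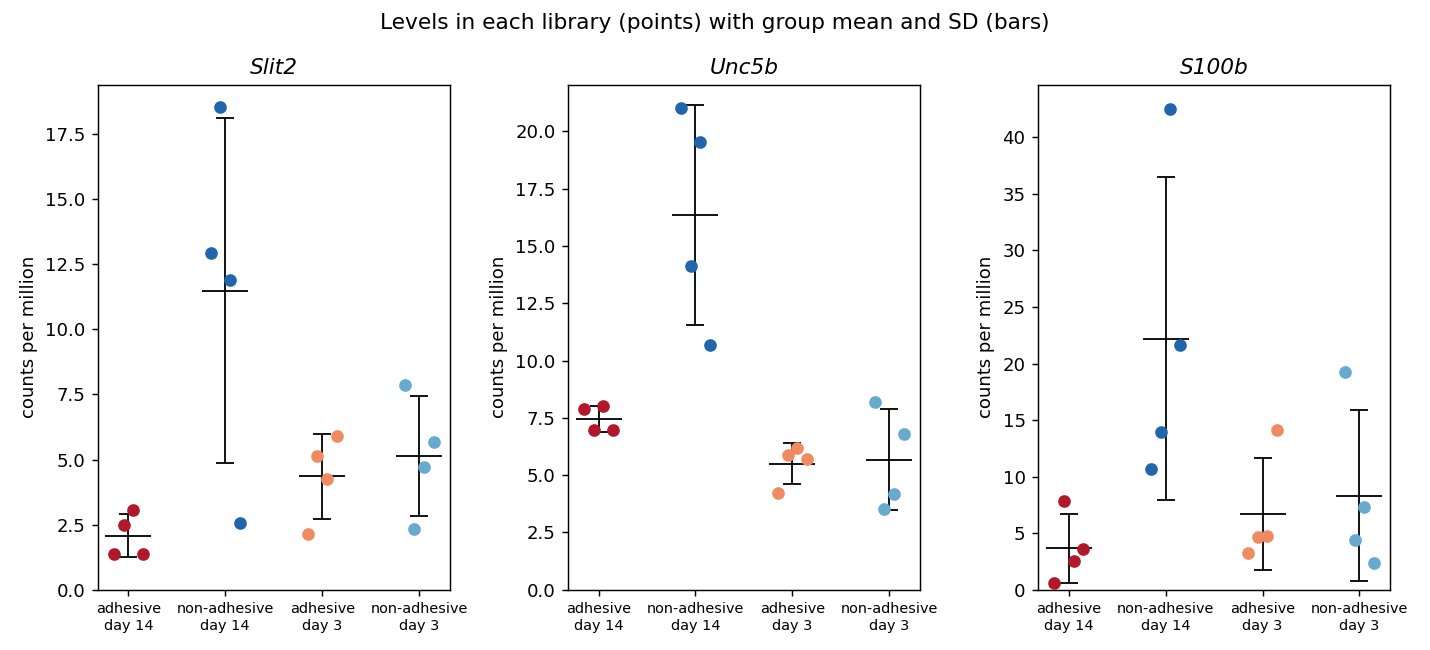
CPM of Slit2, Unc5b and S100b in each library (points) by implant and day, with the group mean and SD (bars, n = 4). On day 14 the adhesive libraries of Unc5b (6.97 to 8.02) and S100b (0.640 to 7.87) sat below every non-adhesive library, while 1 non-adhesive library of Slit2 (2.57) fell within the adhesive range.

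The implant effect on day 14 minus that on day 3 was −2.22 ± 0.72 for Slit2, −1.09 ± 0.37 for Unc5b and −2.27 ± 1.01 for S100b on the log2 scale. A gene was called at a Benjamini-Hochberg adjusted p of at most 0.05 with an absolute log2 fold change of 1 or more. By the quasi-likelihood test of edgeR, 0 of the 3 genes were called between implants on day 14, where 36 of 13557 genes (0.266%) were called. DESeq2 called 3 of 3, all lower with adhesive implants, against 3.5% of all genes called and 2.35% called lower. On day 3 both tools called 0 of 3, and over all genes edgeR called 0% (0 of 14223 genes, with 1022 at an unadjusted p under 0.05) and DESeq2 0.485%. Between days, edgeR called 0 of 3 with adhesive implants, where 8.12% of genes were called. With non-adhesive implants it called 1 of 3, Unc5b, where 9.07% were called. For the change of the implant effect with day both tools called 0 of 3, with 0.00685% of genes called by edgeR and 0.171% by DESeq2. The genes were chosen with these comparisons known, so nothing is read from these counts.

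**Figure D2:**
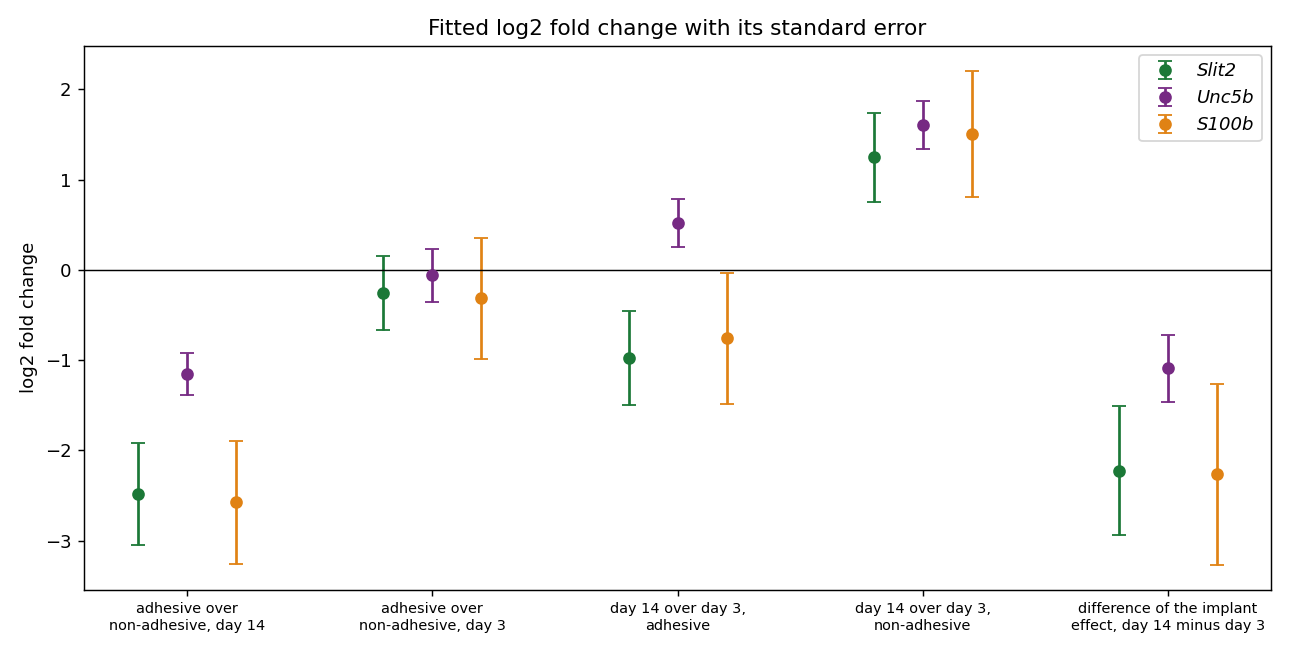
Fitted log2 fold changes with their standard errors for Slit2, Unc5b and S100b in the comparisons of implants, of days and of the implant effect between days. On day 14 the values were −2.48, −1.16 and −2.58, against −0.25, −0.06 and −0.32 on day 3.

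In bulk tissue, fewer cells of a type and less RNA per cell cannot be told apart, and the make-up of the libraries differed. The summed level of 17 named markers of fibroblasts and matrix, of 19 listed, ran from 2393 to 13014 CPM with adhesive and from 3137 to 20348 CPM with non-adhesive implants on day 14. Non-adhesive replicate 4 held the 3137 CPM and the other 3 non-adhesive libraries at least 17633 CPM. The summed level of 17 named markers of skeletal muscle fibres, of 25 listed, ran from 20696 to 34471 CPM with adhesive and from 13435 to 33854 CPM with non-adhesive implants, with 33854 CPM in replicate 4. On day 3 the matrix markers ran from 3723 to 11365 CPM with adhesive and 6056 to 15696 CPM with non-adhesive implants, and the muscle markers from 6739 to 16704 and from 6162 to 14329 CPM. No marker of either list was at 0 in all libraries. The part of tissue make-up in the levels of the 3 genes was not tested.

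Across the 16 libraries, log2 CPM of Slit2 had a Pearson r of 0.79 with the summed matrix markers and −0.58 with the muscle markers. For Unc5b these were 0.40 and 0.18, and for S100b 0.56 and −0.36. On deviations from the 4 group means r was 0.83 and −0.87 for Slit2, 0.45 and −0.64 for Unc5b and 0.44 and −0.53 for S100b, so the sign for Unc5b and muscle markers turned. With the summed level of 5 named markers of pericytes and smooth muscle, Unc5b had r = 0.84 over the libraries, the highest of all the lists summed. Marker by marker that r ran from 0.10 (Myocd) to 0.87 (Notch3). On deviations from group means the sum gave 0.61. The sum of 14 named leukocyte markers gave 0.11 over the libraries and 0.68 on deviations. The pericyte and smooth muscle markers summed to 125 to 150 CPM with adhesive and 124 to 242 CPM with non-adhesive implants on day 14, and to 87.0 to 105 and 70.7 to 127 CPM on day 3. Correlations here are descriptions over libraries that share their group, depth and tissue make-up.

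The genes most like each of the 3 were sought among 1908 others with a symbol and a mean of at least 1 CPM. Those most like Slit2 were Prkd1, a protein kinase (r = 0.91), Kit, the receptor of stem cell factor (r = 0.90), and Col18a1, a basement membrane collagen (r = 0.89). Computed on deviations from the 4 group means, r was 0.84, 0.90 and 0.88. Kit averaged 4.28 ± 1.78 CPM with adhesive and 15.2 ± 6.89 CPM with non-adhesive implants on day 14, and 5.31 ± 1.45 and 5.38 ± 1.64 CPM on day 3. Its lowest non-adhesive library of day 14 had 4.94 CPM, within the adhesive range of 3.14 to 6.92 CPM, as Slit2 also had 1 such library.

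Closest to Unc5b were Phf8, a histone demethylase, Xylt2, an enzyme that starts proteoglycan sugar chains, and Hnrnph1, an RNA-binding splicing factor, each at r = 0.88. On deviations from the group means their r was 0.70, 0.80 and 0.59. Their range was smaller than that of Unc5b. Hnrnph1, for example, averaged 174 ± 7.33 CPM with adhesive and 210 ± 8.83 CPM with non-adhesive implants on day 14.

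The 3 genes closest to S100b included 2 of the adipocyte list. Adipoq, the fat hormone adiponectin, had r = 0.95, Retn, the fat hormone resistin, r = 0.87, and Cdo1, a cysteine-degrading enzyme abundant in liver and fat, r = 0.87. On deviations from group means r was 0.92, 0.90 and 0.78. Without the 2 libraries farthest from the median of S100b, r was 0.91, 0.83 and 0.92. Adipoq stood at 1.81, 19.3, 7.51 and 12.95 CPM with adhesive implants on day 14, against 45.3, 31.1, 299.9 and 96.1 CPM with non-adhesive implants. As for S100b, adhesive replicate 1 was the lowest and non-adhesive replicate 3 the highest. The libraries of day 3 that were high in S100b were also high in Adipoq, adhesive replicate 4 at 73.5 CPM and non-adhesive replicate 1 at 154 CPM, and the others of day 3 ran from 5.22 to 45.6 CPM.

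The 4 named markers of the adipocyte list, of 14 listed, summed to 162 to 250 CPM with adhesive and 179 to 420 CPM with non-adhesive implants on day 14, and to 291 to 409 and 251 to 419 CPM on day 3, with r = 0.26 to S100b. Acacb, an acetyl-CoA carboxylase of muscle and fat, was most of that sum at 106 to 411 CPM, except in non-adhesive day 14 replicate 3, where Adipoq alone had 299.9 CPM. Acacb ran opposite to S100b, with r = −0.40, and −0.45 on deviations from group means. Irs3, also of these 4 markers, had 0.60 and 0.39. The cartilage list, where S100b is also known, had 3 named markers of 10, summing to at most 7.30 CPM in a library, with r = 0.24. The part of fat tissue in the S100b levels was not tested.

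The summed level of 12 named genes of Schwann cells and other glia had r = 0.59 to S100b, and 0.41 on deviations from group means. The adipocyte sum, mostly Acacb, gave 0.19 on deviations. On day 14 Pmp22 averaged 64.9 CPM of a mean glial sum of 136 CPM with adhesive implants. With non-adhesive implants these were 96.7 and 209 CPM. Each sum leans on 1 gene, so the sums do not rank glia against fat. The same glial sum had a higher r to Slit2, 0.78 and 0.73, and to Unc5b it had 0.41 and 0.24. Gene by gene, r to S100b ran from −0.53 (Gjb1) to 0.68 (Mog, a myelin protein of oligodendrocytes) with a median of 0.39. Adipoq was found as the closest of 1908 genes, so its r is no measure for setting the glial list apart. After Mog came Fabp7, a fatty acid binding protein of glia (r = 0.63), Cadm3, an adhesion protein of axons and glia (r = 0.54), and Gpm6b, a membrane glycoprotein of neurons and glia (r = 0.54). Mog rested on 7 to 64 counts a library and Fabp7 on 3 to 24. On deviations from group means, r was 0.47 for Mog, 0.26 for Fabp7, 0.5 for Cadm3 and 0.46 for Gpm6b. Without the 2 libraries farthest from the median of S100b, r was 0.51, 0.36, 0.34 and 0.47. Pmp22, a protein of peripheral myelin, had r = 0.48 and Egr2, a transcription factor of myelination, r = 0.36. Pmp22 stood at 37.9, 115.0, 58.5 and 48.4 CPM with adhesive implants on day 14, against 93.2, 131.2, 121.3 and 41.3 CPM with non-adhesive implants. Its groups overlapped, and its lowest non-adhesive library was replicate 4, which was the second highest of its group for S100b.

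**Figure D3:**
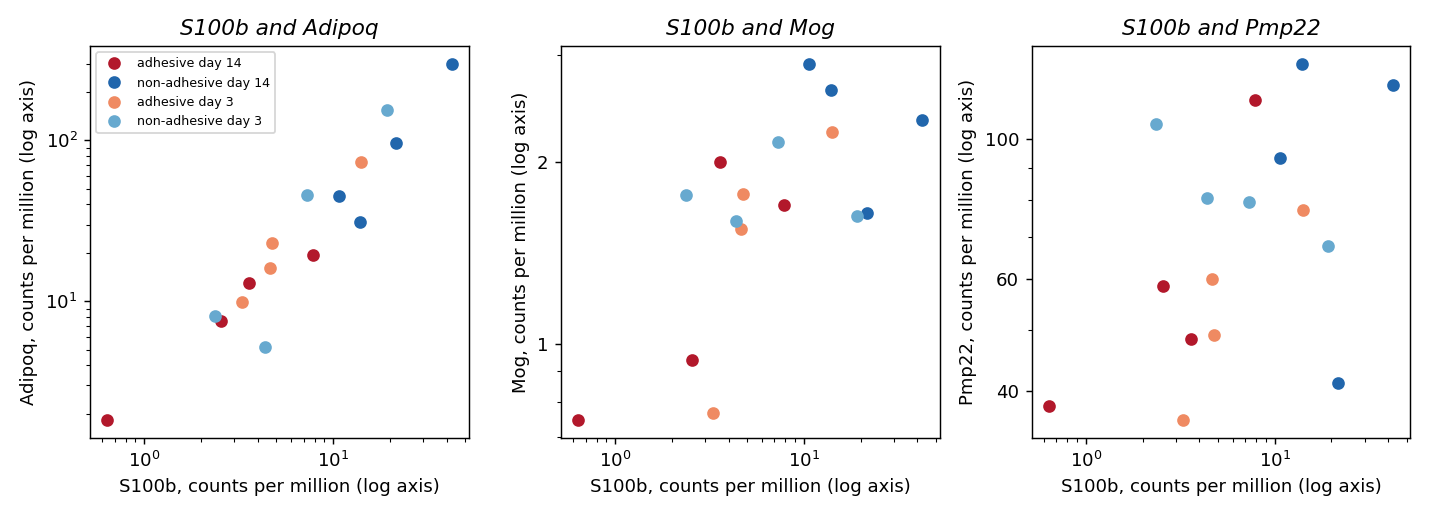
S100b in CPM on log axes against Adipoq, the closest of 1908 genes, and against Mog and Pmp22, with 1 point for each of the 16 libraries coloured by implant and day. On log2 CPM, r was 0.95 for Adipoq, 0.68 for Mog, the highest of the 12 glial genes, and 0.48 for Pmp22. Mog rested on 7 to 64 counts a library.

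Around the 3 genes, 178 others of 6 lists on guidance, neurons and glia were listed, of which 39 had a symbol. Robo receptors and other listed genes with no symbol were not analysed here. Between implants on day 14, edgeR called 0 of 38 tested, with 9 at an unadjusted p under 0.05, and DESeq2 called 2, where 3.5% of all genes were called. Their median log2 fold change was −0.35, with 27 of 38 below 0, beside a median of −0.04 over all genes, of which 7363 of 13557 were below 0. Without non-adhesive replicate 4, edgeR called 4 of these genes and 1151 genes in all. That total was the highest over the libraries left out in turn, and leaving out any other library of day 14 gave far fewer. On day 3, 0 of 38 were called by either tool, 6 were at an unadjusted p under 0.05 by edgeR, and the median was −0.04 beside −0.01 over all genes.

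In the Slit-Robo pathway, 5 of 22 listed genes were named. Their median log2 fold change on day 14 was 0.01, with 3 above 0 and 2, Eva1c and Srgap1, below 0. Eva1c, a Slit receptor known from the worm protein EVA-1, stood at 0.427, 0.809, 0.427 and 0.920 CPM with adhesive implants, against 1.95, 1.51, 1.41 and 1.44 CPM with non-adhesive implants. Its groups did not overlap, at 4 to 35 counts a library. The log2 fold change of Eva1c was −1.27 ± 0.34 (adjusted p = 0.14 by edgeR and 0.036 by DESeq2). Srgap1, a GTPase-activating protein that binds Robo receptors, gave −1.02 ± 0.37 (adjusted p = 0.23 by edgeR), at 6 to 35 counts a library. The signalling proteins Rac1, a small GTPase, Sos2, an exchange factor, and Abl2, a tyrosine kinase, gave 0.01, 0.30 and 0.31.

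The netrin-Unc5 pathway had 3 named genes besides Unc5b. Ntn1, the ligand netrin-1, averaged 1.96 ± 0.531 CPM with adhesive and 2.10 ± 0.473 CPM with non-adhesive implants on day 14 (log2 fold change −0.12 ± 0.29). Flrt2, a membrane protein that binds UNC5 receptors, gave −0.13 ± 0.44. Fyn, a kinase downstream of netrin receptors, gave −0.36 ± 0.35, and edgeR called none of the 3, whose adjusted p values ran from 0.68 upward. Among 7 named genes of the semaphorin, plexin and ephrin pathways, Crmp1, which relays semaphorin signals, gave −0.93 ± 0.30 on day 14 (adjusted p = 0.19 by edgeR) and −0.73 ± 0.20 on day 3 (adjusted p = 0.59).

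Of 11 tested glial genes, 10 had a log2 fold change below 0 on day 14, beside 7363 of 13557 genes in all, with a median of −0.55 and 0 called by edgeR. Pmp22 gave −0.59 ± 0.44 and Egr2 −0.74 ± 0.43 (adjusted p = 0.58 and 0.46 by edgeR). The exception was Gjb1, the gap junction protein connexin 32, at 1.79 to 3.20 CPM with adhesive and 0.704 to 1.44 CPM with non-adhesive implants, which gave 1.36 ± 0.33 (adjusted p = 0.11 by edgeR and 0.0066 by DESeq2). Gfap, the filament protein of astrocytes and non-myelinating Schwann cells, averaged 0.506 ± 0.0442 CPM with adhesive and 0.451 ± 0.287 CPM with non-adhesive implants and was too low to test. Ager, the S100b receptor, gave −0.41 ± 0.26 (adjusted p = 0.50 by edgeR).

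On day 3 the glial median was −0.18 with 6 of 11 tested genes below 0. Gfap was tested on that day, at 1.06 ± 0.59 (adjusted p = 0.75 by edgeR), while another glial gene was not. The glial medians of the 2 days therefore cover slightly different genes. Among 11 genes of neurons and axons the median on day 14 was 0.06 and edgeR called 0. Boc, a receptor that guides commissural axons, gave −1.001 ± 0.317 and Rtn4rl1, a relative of the Nogo receptor, −0.93 ± 0.27 (adjusted p = 0.19 and 0.16 by edgeR).

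**Figure D4:**
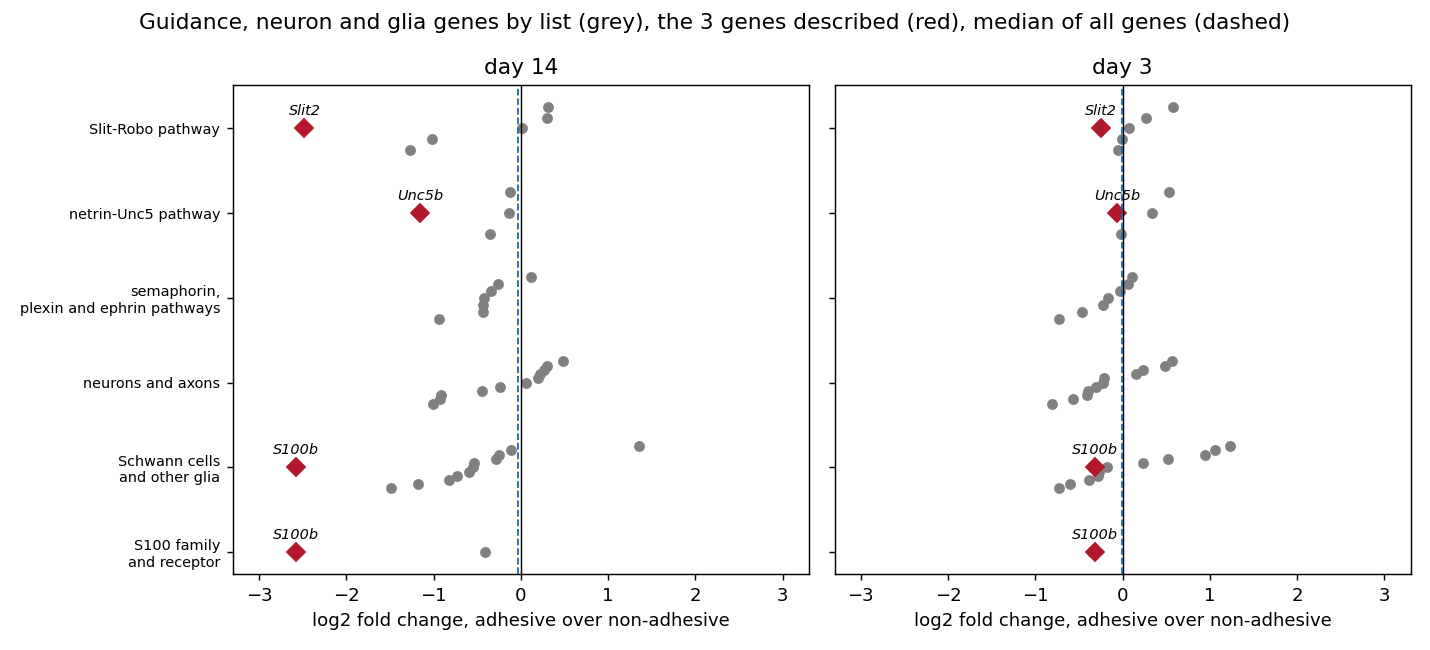
Log2 fold changes, adhesive over non-adhesive, for the named genes of 6 lists (grey) and for Slit2, Unc5b and S100b (red) on day 14 (left) and day 3 (right), with the median of all genes dashed. On day 14 the 3 genes sat at −2.48, −1.16 and −2.58. Of the 11 other tested genes on the glial list, 10 were below 0, with a median of −0.55.

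Between days, edgeR called 3 of the 39 related genes with adhesive implants, all higher on day 14, where 4.39% of all genes were called higher. They were Gap43, a growth cone protein, Rtn4, which encodes the axon growth inhibitor Nogo, and Gpr37, a receptor of glia. Gap43 stood at 9.70, 35.2, 12.7 and 9.89 CPM with adhesive implants on day 14, against 4.93, 2.73, 5.75 and 5.52 CPM on day 3. The 2 days did not overlap, replicate 2 of day 14 stood out, and the log2 fold change of Gap43 was 1.91 ± 0.38 (adjusted p = 0.0072 by edgeR). Rtn4 gave 1.01 ± 0.32 and Gpr37 2.38 ± 0.52 (adjusted p = 0.045 and 0.011 by edgeR), the last at 2 to 18 counts a library.

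With non-adhesive implants edgeR also called 3 of 39, all higher on day 14, where 5.32% of all genes were called higher. Of the 3, 2 belonged to the glial list and 1 to the neuron and axon list. Among them, Rtn4 gave 1.19 ± 0.32 and Gpr37 1.52 ± 0.47 (adjusted p = 0.021 and 0.038 by edgeR). Gpr37 stood at 1.90, 1.58, 0.880 and 0.514 CPM with non-adhesive implants on day 14, against 0.331, 0.869, 0.353 and 0.286 CPM on day 3, and 1 library of day 3 reached into the range of day 14. Leaving out non-adhesive replicate 1 or replicate 3 of day 3 left 0 related genes called, and leaving out replicate 4 of day 3 or replicate 2 of day 14 left 1. Calls over all genes were also fewest without replicate 3 of day 3, so this drop is not particular to the related genes. The summed neuron and axon list was mostly Rtn4, which averaged 1754 ± 284 CPM with adhesive and 1412 ± 518 CPM with non-adhesive implants on day 14, and muscle fibres are known to express it too. The change of the implant effect with day was called for 0 of 39 related genes by edgeR, with 5 at an unadjusted p under 0.05, and for 0 by DESeq2.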

How the data were processed

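Bulk RNA sequencing covered 16 libraries in 4 groups of 4. The authors made the libraries with a poly(A) NEBNext Ultra kit, used Cutadapt, STAR and featureCounts to trim, align and count the reads, and deposited raw counts for 32552 genes, with totals of 13852126 to 24858976 a library. The strand setting of the counting is not given in the sources used here. The labels and the study's methods name different genome builds, so coordinates are those of the count files. Symbols were taken from the study's gene sheets, of which only part is held here (2007 genes); the authors' fold changes and p values there were not used.

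After filterByExpr and TMM scaling, the robust quasi-likelihood model of edgeR 4.0.16 in R 4.3.3 was fitted, each day alone for implants and all 16 libraries for days and for how the implant effect changed with day. Levels are CPM scaled by TMM over 16 libraries, and correlations used log2 CPM with a prior count of 2. Alternatives were DESeq2 1.42.0 (the study's tool), its size factors in edgeR, no filter, a replicate block, 1 fit of 16 libraries and leaving out each library. The fit was tested on simulated data. Named genes were the 3 genes, related genes called by edgeR, 11 fixed genes, the 2 largest changes per list and comparison and the 3 genes most alike, and the genes given are a part of these; some are not reported here. The genes and lists were chosen with earlier results of these data known. Labels put the later time at day 14, while the series text also names day 17 and the extraction protocol day 10.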

Additional observations from a re-analysis of the deposited data

Results flagged for a closer look

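In groups of 4, the gap of the highest or lowest library to its nearest neighbour was set against the group's range for 12 genes in 4 groups, 48 cases, and marked above Dixon's 95% critical value, which chance passes in about 1 group of 20. The S100b level of 14.1 CPM in adhesive day 3 replicate 4 was marked, with a gap of 0.864 of the range. Among related genes, Gap43 at 35.2 CPM was marked as the highest adhesive library of day 14 (0.882 of the range), and Egr2 at 3.19 CPM as the lowest non-adhesive library of day 3 (0.843 of the range).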

How the results depend on the processing

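The log2 fold changes of the 3 genes between implants on day 14 stayed below 0 under all alternatives run, and leaving out each library gave −2.82 to −2.16 for Slit2, −1.33 to −1.01 for Unc5b and −3.27 to −2.04 for S100b. On day 3 the same ranges were −0.49 to 0.03, −0.23 to 0.17 and −1.01 to 0.51. Counts of calls moved far more, and the cause was not tested. On day 14, edgeR called 36 genes between implants, DESeq2 474, and 1 fit of all 16 libraries 216. Leaving out each library gave 1 to 1151, the highest without non-adhesive replicate 4 and at most 5 without adhesive replicates 1, 3 or 4 or non-adhesive replicates 1, 2 or 3, against 28 without adhesive replicate 2. The counts of related genes called there were 0 by edgeR, 2 by DESeq2 and 0 to 4 over the libraries left out. On day 3, DESeq2 called 69 genes and edgeR 0. Between days, leaving out each library gave 462 to 1566 calls with adhesive implants and 744 to 1740 with non-adhesive implants, the lowest without adhesive day 3 replicate 2 and non-adhesive day 3 replicate 3, and with adhesive implants at most 767 without day 3 replicate 4 or day 14 replicates 1, 3 or 4. Related genes called with non-adhesive implants were 1 with no filter on low counts, and 0 to 3 over the libraries left out. For the change of the implant effect with day, DESeq2 called 25 genes, edgeR 1 and the fits without a library 0 to 3. Whether replicate numbers mark pairs cannot be told from these data. Deviations of same-numbered libraries from their group means correlated at −0.34 to 0.48 on day 14 and −0.31 to 0.31 on day 3. On day 14 the same-numbered non-adhesive library was the closest for adhesive replicates 2, 3 and 4. On day 3 it never was. With the replicate number as a block, 0 genes were called between implants on day 14 and 0 for that change, and the log2 fold changes on day 14 were −2.30 for Slit2, −1.10 for Unc5b and −2.76 for S100b.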
